A study of Mus musculus with 6 samples.

Results

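Of 77421 nuclei kept after quality filters, 2350 met a rule built on 7 marker genes of a group of excitatory neurons. A nucleus was kept with 500 or more unique molecular identifiers (UMIs, one per captured RNA molecule), 300 or more genes and a mitochondrial share of no more than 5%. A member nucleus had at least 1 UMI of Slc17a7, the vesicular glutamate transporter of excitatory neurons, and UMIs of at least 3 of Etv1, Cpne7, Col6a1, Dlk1, Col23a1, Col5a2 and Dcn. It also had no UMI of Prox1, a dentate granule factor, and at most 1 UMI each of Tshz2, of Foxp2 with Tle4, of Cux2 with Rorb and of Gad1 with Gad2. Measured expression therefore chose the members, and all values of these rule genes are descriptions.

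Single-nucleus RNA was counted in brain tissue of mice aged 9 months, with titles naming hippocampus and the protocol naming the left hemisphere. Each of 6 groups had 1 library, and the number of animals behind each was not stated. All groups had the strain label B6. FE3 carried APOE3 fl/fl and FE4 carried APOE4 fl/fl, human APOE alleles flanked by loxP sites, with no treatment. TAFE3_oil (P301S APOE3/fl/fl Aldh1la1CreERT) and TAFE4_oil (P301S APOE4 fl/fl Aldh1la1CreERT) added the P301S form of human tau and a Cre recombinase that tamoxifen switches on, and received oil. TAFE3_tam (P301S APOE3 fl/fl Aldh1la1CreERT) and TAFE4_tam (P301S APOE4 fl/fl Aldh1la1CreERT) received tamoxifen. The Cre takes its name from a gene of astrocytes, so recombination of APOE is aimed at astrocytes and not at the neurons described here. The tau libraries differ from FE3 and FE4 in P301S, Cre and oil together, and these cannot be told apart. Wherever 6 values stand in a row below, they belong to FE3, then FE4, TAFE3_oil, TAFE3_tam, TAFE4_oil and lastly TAFE4_tam.

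With 1 library per group there was no replicate of any kind and no test was possible. Intervals in brackets are 95% exact intervals that cover counting error only, and not the spread between animals. The libraries held 14762 to 18171 barcodes and 39050503 to 49083723 UMIs. Pairs of libraries shared between 65 and 83 barcodes, at most 0.504% of a library, and no shared barcode was a member in both. Members had median depths of 3110, 3399, 3511, 3600, 3659 and 3386.5 UMIs. The median mitochondrial share of members split the libraries, at 0.392% in FE4 and 0.454% in TAFE4_tam against 1.12% to 2.06% in the other 4. Human APOE in member nuclei stood at 818 and 688 counts per 1000000 UMIs of the members (CPM) in FE3 and FE4, at 1176 and 1715 in TAFE3_oil and TAFE4_oil, and at 672 and 863 in TAFE3_tam and TAFE4_tam. Mouse Apoe was 140, 89.1, 190, 90.2, 274 and 142 CPM, and its counts may include reads of the human gene, which was not tested. Human tau and Cre had no feature of their own in the count tables. Prnp, whose promoter drives the tau transgene in common P301S lines, stood at 264 to 295 CPM in the 4 tau libraries, against 179 in FE3 and 125 in FE4.

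Etv1 (also called ER81) is an ETS-family transcription factor known in the neocortex from layer 5 pyramidal neurons. Cpne7 belongs to the copines, proteins that bind membranes when calcium rises. The collagens Col6a1, Col23a1 and Col5a2 and the proteoglycan decorin (Dcn) are matrix genes better known from fibroblasts, and Dlk1 is an imprinted membrane protein of the Notch ligand family. In the hippocampal formation several excitatory neuron types carry parts of this set, and mossy cells of the dentate hilus are among the projection neurons there.

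Cpne7 carried most of the rule. It had a UMI in 97.9% of member nuclei, and its level was 2246, 1930, 1666, 1907, 1180 and 2211 CPM. Etv1 followed with 66.3% of members and 291, 337, 313, 368, 292 and 300.8 CPM. Col6a1 was found in 58.9% of members, from 45.6% in TAFE3_tam to 67.6% in TAFE4_oil. Dcn was found in 53.5%, from 37.1% in TAFE4_oil to 61.5% in TAFE3_tam. Col23a1 was found in 41.4% and Col5a2 in 17.4%. Dlk1 was the rarest, with a UMI in 8.30% of members, from 6.43% in FE4 to 12.8% in TAFE3_tam, so most members carried no Dlk1 UMI and the label names a minority gene. Pooled levels were 494 CPM for Col6a1, 319 for Etv1, 275 for Dcn, 194 for Col23a1, 89.3 for Col5a2 and 36.5 for Dlk1, counts that are not divided by gene length.

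UMIs of these genes were also found outside the members, and the part of free RNA in this was not tested. In oligodendrocyte nuclei of these libraries, whose median depth was 998.5 to 1702 UMIs, Cpne7 had a UMI in 18.3%, Etv1 in 9.78%, Dcn in 9.48% and Dlk1 in 0.52%. Oligodendrocyte nuclei with at least 3 of the 7 markers made up 2.08% in TAFE4_oil to 4.04% in FE3. In the other nuclei with Slc17a7, Cpne7 had a UMI in 43.2%, Etv1 in 16.3%, Col6a1 in 10.9% and Dlk1 in 0.62%. The threshold cut a continuous scale. Among nuclei that met every other part of the rule, 6758 had no marker, 6771 had 1, 3566 had 2, 1523 had 3, 638 had 4, 177 had 5, 12 had 6 and 0 had all 7. Just outside the threshold, nuclei with 2 markers had Cpne7 in 89.9% and 4.52 Cpne7 UMIs each on average. Just inside it, nuclei with 3 markers had Cpne7 in 97.0% and 6.76 UMIs each.

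**Figure D1:**
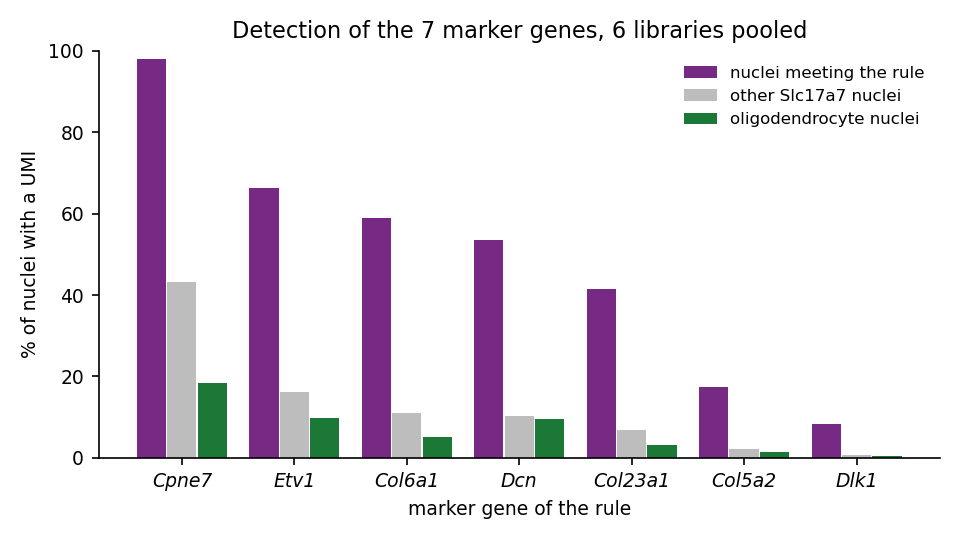
Percent of nuclei with at least 1 UMI of each of the 7 marker genes of the rule, in member nuclei, other nuclei with Slc17a7 and oligodendrocyte nuclei. Cpne7 lies at 97.9% and Dlk1 at 8.30% of members, and the order of the genes is a product of the rule and not a finding.

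The 3 most frequent marker sets held Etv1 and Cpne7. Etv1 with Cpne7 and Dcn alone made up 359 members (15.3%), Etv1 with Cpne7 and Col6a1 300 members (12.8%), and Etv1 with Cpne7 and Col23a1 181 members (7.70%). The next, Cpne7 with Col6a1 and Col23a1, lacked Etv1 and made up 166 members (7.06%). Of the members with a Dlk1 UMI, 98.97% had Cpne7, 64.6% had Dcn and 49.2% had Etv1.

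Outside the rule, 10 of 8866 genes measured (0.113%) were higher in members than in the other Slc17a7 nuclei by at least 1 on the log2 scale in all 6 libraries, and 13 (0.147%) were lower. The members were chosen from the same nuclei, so this comparison describes them and tests nothing. With every nucleus thinned to 2000 UMIs the first count was 11. Cpne2, a second copine, was 194, 204, 152, 169, 80.7 and 214 CPM in members of FE3, FE4, TAFE3_oil, TAFE3_tam, TAFE4_oil and TAFE4_tam, against 55.5, 57.1, 33.6, 42.7, 22.9 and 39.3 in the other Slc17a7 nuclei. Members lay above the other nuclei in each library, by 1.80 to 2.45 on the log2 scale, and TAFE4_oil was the lowest library in both. Col6a2, which forms collagen VI together with Col6a1, was 82.7, 71.3, 43.0, 50.8, 46.1 and 65.0 CPM in members in that order against 14.2 to 18.0 CPM in the others. Rspo3, a secreted activator of Wnt signalling, was 203, 196, 167, 227, 187 and 201 CPM against 75.9 to 92.2. Its log2 difference was 1.02 to 1.37.

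Pde11a, a cyclic nucleotide phosphodiesterase found in ventral hippocampal neurons of mice, was 17.3 to 38.1 CPM in members and 2.35 to 9.54 CPM in the other Slc17a7 nuclei. The imprinted zinc-finger gene Plagl1 was 25.2 to 48.0 CPM against 8.68 to 10.8. Figf, which encodes the growth factor VEGF-D, was 13.03 to 22.2 CPM against 3.79 to 5.54. The sodium-hydrogen exchanger gene Slc9a4, the long noncoding RNA gene Far2os1 and the unnamed models 5330429C05Rik and Gm13663 complete the 10. Just short of the cut came Nr2f2, a nuclear receptor factor, with log2 differences of 0.98 to 1.34, and the imprinted gene Nnat with 0.95 to 1.76. The axon guidance ligand Slit2 (0.95 to 1.34), the matrix gene Fbln2 (0.93 to 1.44) and the phospholipase gene Plce1 (0.95 to 1.65) followed. Members had less Ptchd4, at 16.5 to 22.8 CPM against 61.3 to 80.9, and less of the Wnt effector Tcf7l2, at 3.58 to 7.01 CPM against 16.5 to 29.1. Mgll, which breaks down the endocannabinoid 2-arachidonoylglycerol, was 31.8 to 46.1 CPM against 75.1 to 109. The semaphorins Sema6d and Sema5a were also lower, by at least 1.02 in every library.

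Summed marker lists of neuron types were compared between members and the other Slc17a7 nuclei, and the ranges below run over the 6 libraries. The summed layer 5 intratelencephalic list (9 genes) was 93.6 to 133 CPM in members and 105 to 163 CPM in the other Slc17a7 nuclei. The layer 5 extratelencephalic list (8 of 9 genes detected) was 273 to 401 CPM against 319 to 436, and the layer 6b list (8 genes) 64.6 to 84.2 against 73.7 to 157. The claustrum list (8 genes, Nnat among them) was 297 to 439 against 213 to 302, and the CA1 list (7 genes) 265 to 350 against 204 to 264. The subiculum list (8 of 9) was 78.8 to 142 CPM against 99.7 to 145, the CA2 and CA3 list (7) 107 to 162 against 85.1 to 143, and the entorhinal and retrosplenial list (7) 99.8 to 123 against 78.6 to 113. The claustrum, CA1 and entorhinal and retrosplenial lists were higher in members than in the other nuclei in each of the 6 libraries. Nnat was 275, 185, 323, 307, 247 and 279 CPM in members against 142, 83.7, 95.6, 125, 97.1 and 125. Its excess was larger than that of the whole claustrum list in each library, so the other claustrum genes together were lower in members. Nr2f2 of the entorhinal and retrosplenial list was 48.2, 38.3, 37.8, 49.4, 42.7 and 48.0 CPM against 15.0 to 22.2. Its excess was larger than that of its list in each library but FE4. The sums of several lists were thus raised by less than 2-fold, and the members are called here by their rule.

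Lists of other cell types were present at low levels. The astrocyte list was 169 to 248 CPM in members and 308 to 450 in the other Slc17a7 nuclei, and the inhibitory list 68.0 to 86.5 against 108 to 177. The vascular fibroblast list, which bears on the matrix genes of the rule, was 128, 54.8, 162, 64.4, 103 and 89.7 CPM in members and 56.1 to 137 CPM in the others. The oligodendrocyte list was 95.3 to 210 CPM against 147 to 295, the precursor list 31.8 to 53.6 against 63.9 to 84.5, the Cajal-Retzius list 15.6 to 26.5 against 22.8 to 34.6, and the dentate list 31.3 to 84.7 against 85.8 to 245. The general excitatory list was 1643 to 2033 CPM in members and 1792 to 2195 in the others.

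Member nuclei were a smaller share of the Slc17a7 nuclei in the oil-treated tau libraries than in FE3 and FE4, and the tamoxifen-treated libraries lay between. They numbered 578 of 5916 Slc17a7 nuclei in FE3 (9.77% [9.03, 10.6]), 638 of 6931 in FE4 (9.21% [8.53, 9.91]) and 200 of 4798 in TAFE3_oil (4.17% [3.62, 4.77]). They numbered 351 of 4472 in TAFE3_tam (7.85% [7.08, 8.68]), 213 of 5747 in TAFE4_oil (3.71% [3.23, 4.23]) and 370 of 5832 in TAFE4_tam (6.34% [5.73, 7.0]). The intervals of the oil-treated libraries overlap each other and no other library. On the log2 scale TAFE3_oil was -1.23 [-1.47, -0.99] against FE3 and TAFE4_oil was -1.31 [-1.54, -1.09] against FE4, ratios of 0.427 and 0.403. Tamoxifen against oil was 0.91 [0.66, 1.17] with APOE3 and 0.78 [0.53, 1.03] with APOE4, ratios of 1.88 and 1.71. FE4 against FE3 was -0.09 [-0.25, 0.08], TAFE4_oil against TAFE3_oil -0.17 [-0.45, 0.12], and TAFE4_tam against TAFE3_tam -0.31 [-0.52, -0.09].

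After thinning to 2000 UMIs the shares were 8.98%, 8.83%, 3.64%, 6.95%, 2.87% and 5.47%. Of all kept nuclei, members made up 5.28%, 3.86%, 1.72%, 3.24%, 1.63% and 2.56%. The rule leaves out nuclei of other types, whose shares moved as well. Nuclei with at least 1 UMI of Prox1 were 11.2% and 12.6% of Slc17a7 nuclei in FE3 and FE4 and 6.17% and 4.99% in TAFE3_oil and TAFE4_oil. Upper-layer nuclei (at least 2 UMIs of Cux2 with Rorb) were 5.49% and 7.01% against 15.9% and 19.3%. Among nuclei that met all other parts of the rule, members were 14.8%, 14.9%, 7.87%, 14.0%, 7.76% and 10.7%, so both oil-treated libraries stayed lowest with the other types left out of the denominator. Whether dissection, the loss of cells or less RNA per cell of the rule genes sets these shares cannot be told apart.

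The level of the leading rule gene outside the members moved the same way. Cpne7 in oligodendrocyte nuclei was 262, 271, 191, 254, 147 and 253 CPM, lowest in both oil-treated libraries. In the other Slc17a7 nuclei Cpne7 was 748, 657, 336, 554, 261 and 568 CPM. In upper-layer nuclei, which the rule leaves out whatever their Cpne7, it was 495, 537, 184, 412, 184 and 306 CPM. Both oil-treated libraries were thus lowest in these excitatory nuclei too. How far this lower level of Cpne7 sets the shares was not tested. The 7 markers summed in oligodendrocyte nuclei were 576, 545, 408, 517, 352 and 476 CPM in that order. With Cpne7 not counted and at least 2 of the other 6 markers asked for, an alternative chosen after seeing the data, the shares were 10.6%, 10.3%, 5.52%, 9.03%, 4.85% and 7.22%. The order of high and low libraries was the same, with oligodendrocyte nuclei passing at 6.14%, 3.804%, 4.91%, 5.85%, 3.94% and 3.54%. The part of free RNA in the shares was not tested.

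**Figure D2:**
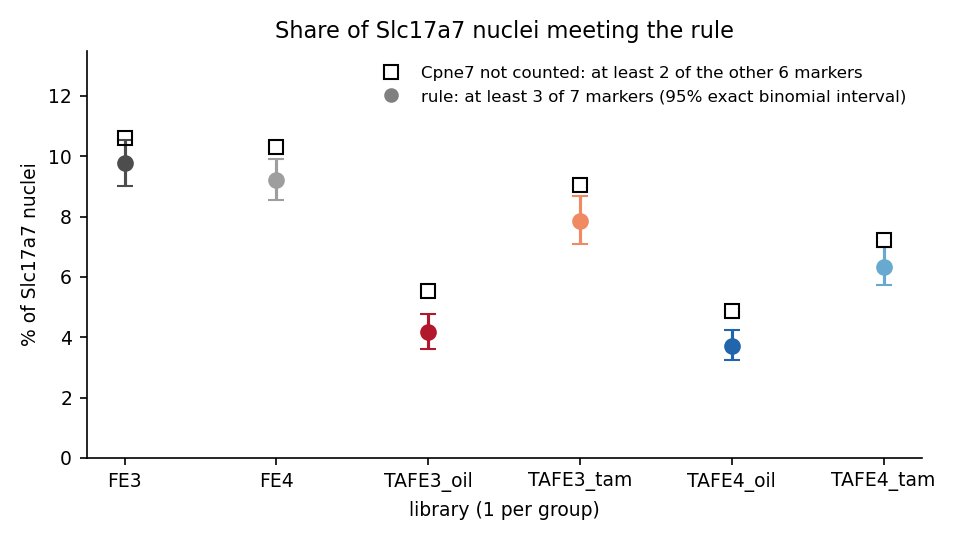
Member nuclei as percent of the nuclei with a Slc17a7 UMI in each of the 6 libraries, with 95% exact binomial intervals for counting error. The oil-treated tau libraries lie at 4.17% and 3.71%, FE3 and FE4 at 9.77% and 9.21%, and the tamoxifen-treated libraries at 7.85% and 6.34%.

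Members fell into 7 clusters when grouped by their variable genes. Cluster 1 (739 nuclei) was led by the POU factor gene Pou3f1 and by Ndst4, Man1a and Ndst3, and cluster 2 (489 nuclei) by the collagen gene Col11a1, the Wnt regulator Nkd2, Plagl1 and Trhde. Cluster 3 (405 nuclei) was led by the noncoding RNA Rmst, the relaxin receptor Rxfp1 and Sgcz, and cluster 4 (335 nuclei) by Fbln2, the orphan receptor Gpr101, Gpc3 and Dlk1. In cluster 4 Dlk1 had a UMI in 20% of nuclei and a level of 120 CPM, and Dcn reached 633 CPM. Cluster 6 (131 nuclei) was led by Csf2rb2, Col12a1, Cd44 and Calb2. The mossy list summed to 266 CPM there against 84.6 in the other members, with 5 of its 6 genes detected. Csf2rb2 stood at 68.7 CPM, Calb2 (calretinin) at 49.95, Ajap1 at 85.3, Rgs12 at 54.1 and Glipr1 at 8.3, while the dopamine receptor gene Drd2 had no UMI. Csf2rb2 and Calb2, which lead the cluster, had a UMI in 13.7% and 15.3% of its nuclei. The CA2 and CA3 list was also higher there, at 210 CPM against 123, and the cluster stays unnamed.

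Cluster 5 (192 nuclei) was led by the smooth muscle genes Acta2 and Tagln and the endothelial gene Cldn5, and cluster 7 (59 nuclei) by the immune genes Ptprc, Cx3cr1 and Fyb. In TAFE3_oil 1 nucleus of cluster 5 held 233 of the 354 UMIs (65.8%) of the endothelial and pericyte list in members. The top nucleus of each other library held 13.6% (TAFE4_oil) to 35.4% (FE3) of the UMIs of that list. Results that move with the TAFE3_oil nucleus are given below with and without it, an alternative chosen after seeing the data. Unless stated, the other library of the pair is left whole there. The median doublet scores of clusters 5 and 7 were 0.289 and 0.427, against 0.087 to 0.162 in the other clusters. Between-library comparisons within clusters leave these 2 clusters out. The genes that lead a cluster made the cluster and are no result.

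**Figure D3:**
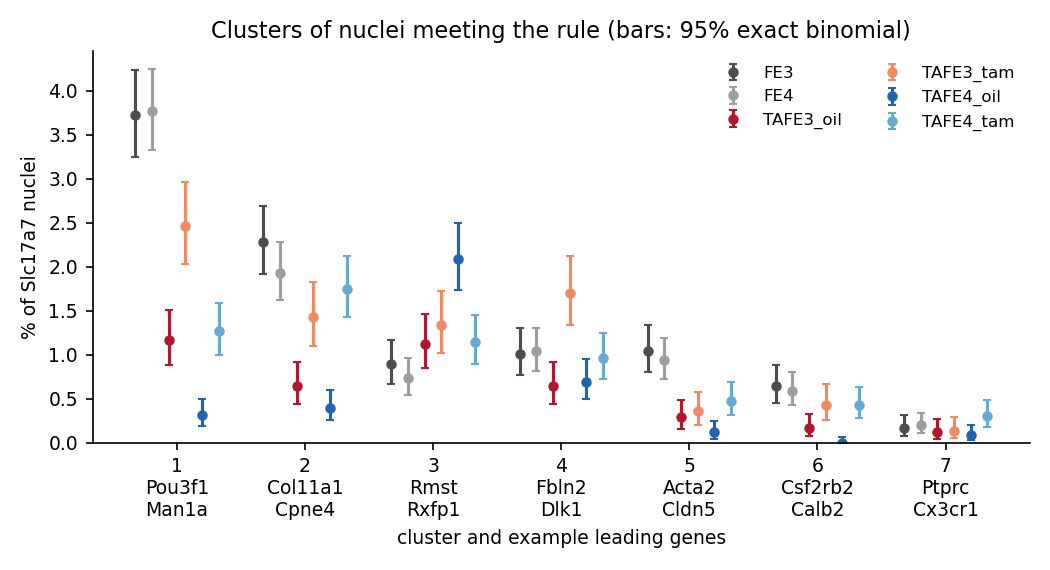
Each cluster of members as percent of the nuclei with a Slc17a7 UMI, by library. Clusters 1 and 2 are smallest in the oil-treated tau libraries, and cluster 3 is largest in TAFE4_oil.

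Clusters 1 and 2 held most of the difference in shares. Cluster 1 had 220, 261, 56, 110, 18 and 74 nuclei, which is 3.72%, 3.77%, 1.17%, 2.46%, 0.313% and 1.27% of the Slc17a7 nuclei. The 2 libraries without tau were the highest and TAFE4_oil the lowest. TAFE3_oil against FE3 was -1.67 [-2.12, -1.24] on the log2 scale and TAFE4_oil against FE4 was -3.59 [-4.37, -2.90]. Tamoxifen against oil was 1.08 [0.60, 1.57] with APOE3 and 2.02 [1.26, 2.85] with APOE4. Inside cluster 1 its leading gene Pou3f1 was 180, 136, 132, 153, 143 and 225 CPM and Man1a 203, 171, 254, 210, 143 and 207, while Ndst4 was 127, 144, 66.0, 69.3, 131 and 70.1. Lists of more than a single neuron type were high in cluster 1. The layer 5 extratelencephalic list, which holds Pou3f1, summed to 556 CPM against 251 in the other members, with Bcl11b at 237 CPM and Fezf2 at 89.6. The CA1 list summed to 440 CPM against 256, with Mpped1 at 248 and Fibcd1 at 131, and the cluster stays unnamed. Raised lists were not particular to cluster 1. In cluster 4 the CA1 list was 516 CPM against 286, and the claustrum list 667 against 328, with Nnat at 570. The entorhinal and retrosplenial list was 217 against 96.6 there. In cluster 2 the CA2 and CA3 list was 240 against 96.5.

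Cluster 2 was 2.28%, 1.93%, 0.646%, 1.43%, 0.400% and 1.75% of the Slc17a7 nuclei in the same order. TAFE3_oil against FE3 was -1.82 [-2.43, -1.25] and TAFE4_oil against FE4 was -2.27 [-2.98, -1.63], and tamoxifen against oil was 1.15 [0.51, 1.82] and 2.13 [1.46, 2.85]. Its leading gene Trhde was 202, 233, 246, 327, 253 and 293 CPM inside the cluster. Cluster 6 had 38, 41, 8, 19, 0 and 25 nuclei, so TAFE4_oil held 0 of its 5747 Slc17a7 nuclei there. In that library 3 counts, taken as the limit that a count of 0 allows, are a share of 0.0522%. Cluster 4 was 1.01%, 1.04%, 0.646%, 1.70%, 0.696% and 0.960%. There TAFE3_oil against FE3 was -0.65 [-1.33, -0.00] and TAFE4_oil against FE4 was -0.58 [-1.17, -0.00].

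Cluster 3 had 53, 51, 54, 60, 120 and 67 nuclei, or 0.896%, 0.736%, 1.13%, 1.34%, 2.09% and 1.15% of the Slc17a7 nuclei. Its number was high in TAFE4_oil and nearly equal in FE3 and TAFE3_oil. It made up 9.17% and 7.99% of members in FE3 and FE4, 27% in TAFE3_oil and 56.3% in TAFE4_oil. Its leading genes differed between libraries as well, with Rmst at 63.0, 29.5, 161, 181, 156 and 93.5 CPM and Sgcz at 97.4, 54.2, 281, 92.5, 236 and 106 inside the cluster. The size of cluster 3 is described here without a ratio between libraries. Ratios below are summed over members. Because the mix of clusters differed, a value named as within clusters pools the ratio over clusters 1, 2, 3, 4 and 6. TAFE4_oil had 0 nuclei in cluster 6, so every pair with TAFE4_oil pools clusters 1, 2, 3 and 4 only. Of its nuclei, 120 lay in cluster 3.

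Tau with Cre and oil was compared with no tau in each APOE background, TAFE3_oil against FE3 and TAFE4_oil against FE4. A gene was called when its log2 ratio of CPM was at least 1 or at most -1, among genes with 20 or more UMIs summed over the pair and 10 CPM in the higher library. In TAFE3_oil against FE3, 261 genes (2.65%) were higher and 326 (3.31%) lower. In TAFE4_oil against FE4, 865 genes (8.75%) were higher and 210 (2.12%) lower. The median of all genes was -0.02 in the first pair and 0.20 in the second, so the second count leans upward as a whole. Both pairs called the same direction for 87 genes higher (0.922%) and 32 lower (0.339%) of 9434 measured in both. With at least 100 UMIs asked for, the counts were 61 and 285, so most called genes had few UMIs.

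Tnrc6c (ENSMUSG00000025571), which encodes a GW182 protein that microRNA-loaded Argonaute recruits, was 354, 303, 761, 905, 678 and 493 CPM. All 4 tau libraries lay above both libraries without tau. The log2 ratio was 1.10 [0.94, 1.26] with APOE3 and 1.16 [1.00, 1.32] with APOE4, and 1.20 and 1.23 within clusters. It was also higher in oligodendrocyte nuclei of the tau libraries, at 219, 186, 512, 566, 422 and 298 CPM. Galnt11, an enzyme that starts O-linked glycans, was 66.5, 40.4, 125, 139, 133 and 120 CPM, with ratios of 0.91 [0.52, 1.30] and 1.71 [1.31, 2.12]. It too was higher in oligodendrocyte nuclei, at 48.1, 35.4, 87.0, 108, 89.5 and 73.7 CPM.

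Nptx2, a secreted pentraxin that clusters AMPA receptors after activity, was 15.2, 10.7, 32.6, 21.5, 42.7 and 18.4 CPM. In TAFE3_oil 11 of its 25 UMIs (44%) lay in 1 nucleus, and without that nucleus the library stood at 18.3 CPM, below TAFE3_tam, which leaves TAFE4_oil highest. The ratios were 1.10 [0.27, 1.91] and 1.99 [1.23, 2.77], and 0.96 and 1.79 within clusters. Without the nucleus the first was 0.27 [-0.76, 1.23]. Cluster 3 held 17 of the 25 Nptx2 UMIs of TAFE3_oil and 27 of the 37 of TAFE4_oil, against 1 UMI each in FE3 and FE4. In TAFE4_oil and FE4, cluster 2 had 20.2 and 18.0 CPM and cluster 4 had 7.4 and 14.5. Cluster 1 had 47.5 CPM on 4 UMIs and 7.32 CPM. The pooled ratios therefore rest mostly on cluster 3. Enc1, a neuronal actin-binding protein, was 35.0, 47.4, 71.6, 62.3, 122 and 81.9 CPM, with ratios of 1.03 [0.49, 1.57] and 1.37 [0.97, 1.76]. In TAFE4_oil 75 of the 106 Enc1 UMIs lay in cluster 3, at 150 CPM against 54.2 in FE4. Clusters 1, 2 and 4 had 59.4, 50.5 and 104 CPM in TAFE4_oil against 53.3, 41.5 and 33.9 in FE4. Thpo, the thrombopoietin gene, was 28.9, 24.7, 58.6, 36.5, 43.8 and 50.1 CPM in members, with ratios of 1.02 [0.42, 1.61] and 0.82 [0.20, 1.43]. In the other Slc17a7 nuclei Thpo was 27.6, 24.1, 27.3, 28.7, 24.8 and 35.7 CPM, and the difference between both kinds of nuclei was not tested. Polr2h, an RNA polymerase II subunit, was 17.8, 19.4, 37.8, 21.5, 35.7 and 24.0 CPM. Stk40, Cacul1, Samd1 and Gpr26 made up the rest of the 10 highest, with ratios of 0.74 to 0.91 in both pairs.

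**Figure D4:**
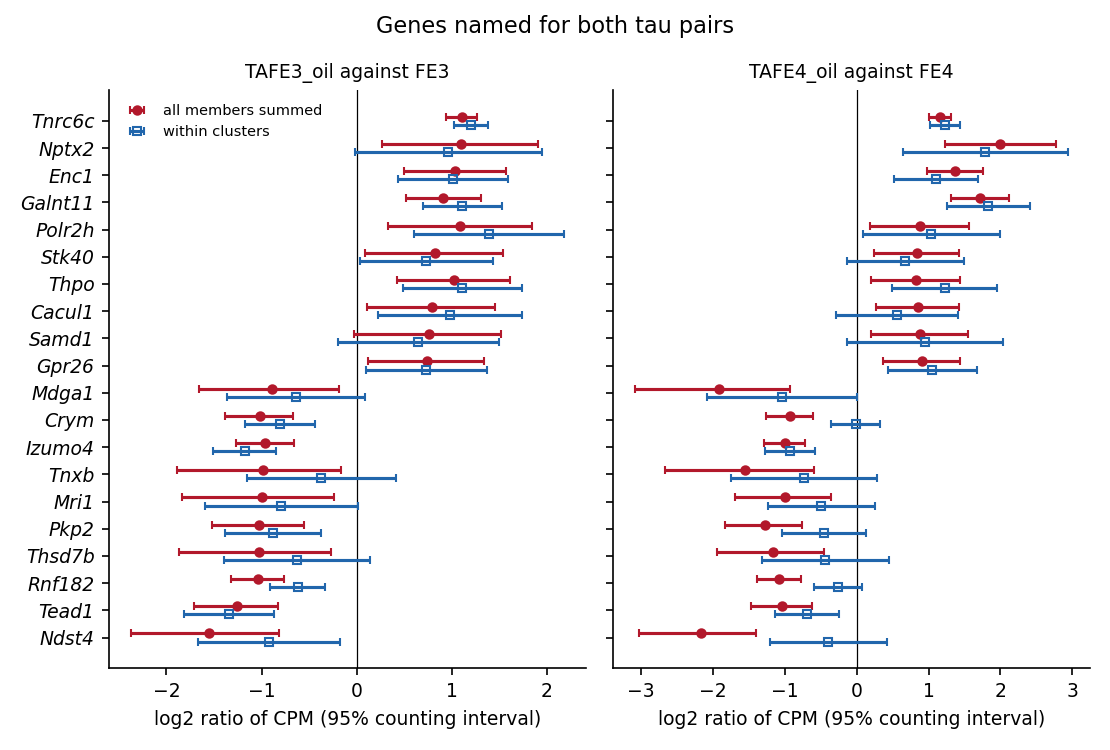
Log2 ratio of CPM in members for the genes named in the comparison of tau with no tau, by APOE background, summed over members and within clusters. Tnrc6c lies at 1.10 and 1.16 summed and at 1.20 and 1.23 within clusters, while Ndst4 moves from -2.16 to -0.40 within clusters in TAFE4_oil against FE4.

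Several of the lower genes lost more of their difference within clusters with APOE4 than with APOE3. Ndst4, a heparan sulfate sulfotransferase and a leading gene of cluster 1, was 64.9, 77.5, 22.1, 41.5, 17.3 and 25.4 CPM. Its ratios were -1.55 [-2.38, -0.82] and -2.16 [-3.03, -1.41], and -0.92 and -0.40 within clusters. Rnf182, a brain ubiquitin ligase, was 341, 263, 167, 213, 125 and 250 CPM. Its ratios were -1.03 and -1.08, and -0.62 and -0.26 within clusters. Rnf182 was high in cluster 2, at 569 CPM against 158 in the other members. Ndst4 and Rnf182 thus each mark a cluster, so their smaller ratios within clusters may be partly set by the grouping. In TAFE4_oil Ndst4 had 15 UMIs, of which 11 lay in cluster 1. The APOE4 values also lack cluster 6, where Rnf182 was 798 CPM in FE4. Crym, which binds thyroid hormone, was 212, 209, 104, 173, 110 and 185 CPM, with -1.02 and -0.93 summed and -0.80 and -0.01 within clusters. Both Ndst4 and Crym were lower outside the members as well. In the other Slc17a7 nuclei Ndst4 was 66.1, 79.1, 32.6, 52.2, 21.6 and 44.7 CPM and Crym 137, 137, 73.4, 110, 58.5 and 88.5, and in oligodendrocyte nuclei Crym was 100, 71.7, 49.0, 61.5, 39.9 and 53.7 CPM.

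Tead1 and Izumo4 kept more of theirs. Tead1, the DNA-binding partner of YAP, was 159, 130, 66.4, 102, 63.4 and 121 CPM, lowest in both oil-treated libraries. The ratios were -1.26 [-1.71, -0.83] and -1.03 [-1.47, -0.62], and -1.34 and -0.69 within clusters. Tead1 was also lower with tau outside the members, at 127, 112, 51.6, 77.3, 38.3 and 74.2 CPM in the other Slc17a7 nuclei. In oligodendrocyte nuclei it was 81.2, 63.3, 49.0, 41.8, 35.6 and 41.1 CPM. Izumo4, a member of a sperm-egg fusion protein family, was 277, 275, 142, 198, 137 and 179 CPM, with -0.96 [-1.27, -0.66] and -1.003 [-1.30, -0.72] summed and -1.18 and -0.93 within clusters. Izumo4 was also lower in oligodendrocyte nuclei, at 271, 302, 184, 226, 182 and 205 CPM. Mdga1, which binds neuroligins, was 48.2, 39.2, 26.1, 37.2, 10.4 and 38.8 CPM, with -0.89 [-1.66, -0.18] and -1.92 [-3.09, -0.93]. Pkp2, Thsd7b, Mri1 and Tnxb were lower by -1.55 to -0.98 in both pairs and by -0.88 to -0.37 within clusters.

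Immediate early genes are switched on by neuronal firing. Of 21 measured, 4 were past the fold upward and 1 downward in TAFE3_oil against FE3, and 7 upward and 0 downward in TAFE4_oil against FE4. Of all genes, 2.65% were higher and 3.31% lower in the first pair and 8.75% and 2.12% in the second, so all genes leaned upward there too. The medians were 0.34 and 0.46 beside -0.02 and 0.20 for all genes, and 0.39 and 0.45 within clusters. Without the endothelial nucleus of TAFE3_oil the first pair had 2 of 20 higher and 0 lower with a median of 0.23, beside 2.17% and 3.68% of all genes. Ier2 was 5.07, 5.36, 14.3, 12.2, 17.3 and 8.47 CPM, with ratios of 1.498 [0.12, 2.89] and 1.69 [0.52, 2.88], and the first was 0.88 [-0.75, 2.42] without that nucleus. Nr4a1, an orphan nuclear receptor gene, was 14.7, 14.8, 13.03, 28.6, 58.8 and 21.9 CPM, so it was high in TAFE4_oil and not in TAFE3_oil. Fos was 4.06, 13.6, 20.8, 20.8, 20.8 and 7.06 CPM. Oligodendrocyte nuclei had Nptx2 at 9.61, 5.76, 15.5, 11.03, 24.1 and 13.8 CPM and Nr4a1 at 13.9, 15.1, 18.7, 15.1, 33.8 and 18.8. These levels moved in part with the member level. The part of free RNA in the member values was not tested.

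MHC class I genes, which present peptides to T cells, had 3 of 9 measured past the fold upward and 0 downward in TAFE3_oil against FE3, and 3 of 8 upward and 0 downward in TAFE4_oil against FE4, beside 2.65% and 8.75% of all genes higher. The medians were 0.47 and 0.71, beside -0.02 and 0.20 for all genes, and 0.37 and 0.78 within clusters. Without the endothelial nucleus of TAFE3_oil, and with FE3 left whole, the first pair had 1 of 8 higher with a median of 0.14, beside 2.17% of all genes higher. H2-K1 was 29.4, 19.4, 93.8, 56.5, 73.8 and 94.6 CPM, with each tau library above FE3 and FE4 and ratios of 1.67 [1.15, 2.20] and 1.93 [1.36, 2.504]. In TAFE3_oil 27 of its 72 UMIs lay in the endothelial nucleus, without which the first ratio was 1.03 [0.43, 1.61] with FE3 left whole. In FE3 the top endothelial nucleus held 17 of the 58 H2-K1 UMIs and 25 of the 63 UMIs of B2m, another class I gene. Without these nuclei H2-K1 stood at 59.9 CPM in TAFE3_oil and 21.0 CPM in FE3. H2-D1 was 53.8, 42.5, 154, 111, 105 and 167 CPM, and its first ratio fell from 1.51 to 0.91 without that nucleus. The complement gene C4b was 8.63, 7.83, 48.2, 19.3, 31.1 and 55.8 CPM, with ratios of 2.48 [1.62, 3.40] and 1.99 [1.09, 2.92]. H2-K1 and H2-D1 belong to a family of near-identical copies and are uncertain as single genes.

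Glial RNA moved with these genes. H2-K1 in oligodendrocyte nuclei was 60.9, 45.6, 177, 179, 192 and 307 CPM, above the members in each library. The microglia list (all 10 genes detected) summed to 180, 174, 442, 374, 466 and 510 CPM in members and 212 to 723 CPM in the other Slc17a7 nuclei. C1qa, a complement gene made by microglia, was 46.2, 33.8, 147, 117, 155 and 168 CPM in members, 46.4, 43.5, 191, 146, 217 and 219 in the other Slc17a7 nuclei and 75.8, 115.1, 370, 298, 429 and 395 in oligodendrocyte nuclei. The part of microglial and oligodendrocyte RNA in the member values was not tested. The endothelial and pericyte list summed to 189, 136, 461, 135, 101 and 85.4 CPM, so TAFE3_oil stood apart. With the top nucleus of this list left out of each library, the sums were 123, 107, 161, 89.5, 87.9 and 66.8 CPM. TAFE3_oil stayed highest. Klf2, a factor of endothelium that is also on the immediate early list, was also highest in TAFE3_oil, at 9.64, 14.0, 40.4, 2.15, 8.07 and 7.77 CPM, and 23 of its 31 UMIs there lay in that nucleus.

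The families of the rule genes were read through their other members. Of the 8 other copines 7 were measured, with medians of -0.47 and -0.84 in the 2 tau pairs and -0.33 and -0.56 within clusters. Cpne6, the most abundant of them, was 773, 644, 501, 608, 360 and 664 CPM, with ratios of -0.62 [-0.79, -0.46] and -0.84 [-1.02, -0.66]. Cpne2 was the one past the fold, at -1.34 [-1.72, -0.97] in TAFE4_oil against FE4, and -0.66 within clusters. Collagen and matrix genes had medians of -0.44 and -0.26 over 17 measured, with 1 higher and 2 lower past the fold in the first pair (3 lower without the endothelial nucleus) and 1 and 3 in the second. Col25a1, a membrane collagen, was 70.5, 62.3, 52.1, 68.0, 27.7 and 67.1 CPM. The proteoglycan gene Spock3 went the other way, at 23.3, 24.3, 48.2, 32.9, 48.4 and 37.4 CPM. Of the pathway genes around Etv1 (growth factor receptors, MAP kinases and their feedback inhibitors), 1 of 16 was higher and 1 lower in the first pair and 4 and 1 in the second. Nrg1 was higher in both at 4.57, 8.25, 16.9, 12.2, 18.4 and 7.77 CPM, and the ETS relative Etv5 was 13.2, 15.7, 24.7, 12.2, 28.8 and 24.0. Notch pathway genes other than Dlk1 had 0 higher and 2 lower of 10 measured, and 0 and 1 of 11. Beside these counts stand 2.65% higher and 3.31% lower of all genes in the first pair and 8.75% and 2.12% in the second.

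Synaptic and channel genes differed little as groups. Presynaptic genes had medians of -0.05 and 0.23 (1 of 26 and 1 of 27 higher past the fold, 0 lower), and postsynaptic genes -0.12 and 0.10 over 26 (0 higher and 1 lower, then 1 and 0). AMPA and NMDA receptor genes had -0.24 and -0.04 over 14, none past the fold. Grin2a, an NMDA receptor subunit, was 1766, 1669, 1282, 1328, 947 and 1370 CPM, with ratios of -0.46 [-0.57, -0.36] and -0.82 [-0.93, -0.71]. Potassium channel genes had 0.01 and 0.21, with Kcnip2 of 27 past the fold downward in the first pair and none of 26 in the second. Sodium and calcium channel genes had -0.19 and 0.17, GABA-A receptor genes 0.08 and -0.00, and kainate and metabotropic glutamate receptor genes -0.14 and 0.26. Tau with its kinases and phosphatases had 0.02 and 0.40, with Cdk5r1, the activator of Cdk5, at 50.2, 42.1, 71.6, 73.0, 83.02 and 86.1 CPM. Mouse Mapt itself was 208, 225, 297, 295, 339 and 369 CPM, and whether these counts hold reads of the human transgene was not tested.

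Several lists had their largest medians where FE4 was one of the libraries. Ribosomal protein genes (40) had medians of -0.06 in TAFE3_oil against FE3, 0.86 in TAFE4_oil against FE4 and -0.82 in FE4 against FE3. Nuclear-encoded oxidative phosphorylation genes had 0.12, 0.67 and -0.58 and heat shock genes 0.14, 0.79 and -0.42 in those comparisons. Mitochondrially encoded genes had -0.64, 1.58 and -1.92. Hsp90aa1, a chaperone, was 208 CPM in FE3 and 289 in TAFE3_oil, against 118 in FE4 and 337 in TAFE4_oil. These comparisons share FE4, whose mitochondrial share was the lowest, and the part of RNA quality in them was not tested. Stress response genes had -0.11 and 0.50 and p53 and DNA damage genes -0.08 and 0.23 in the 2 tau pairs, cholesterol synthesis genes -0.19 and 0.40, and lipid receptor and transport genes -0.24 and 0.09. Long nuclear RNAs had -0.16 and -0.21.

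Single genes of the lists were past the fold in the same direction in both tau pairs. Sorcs1, a sorting receptor, was 19.3, 16.9, 40.4, 21.5, 39.2 and 17.7 CPM, highest in the oil-treated tau libraries. Its ratios were 1.07 [0.33, 1.79] and 1.21 [0.51, 1.91], and 0.69 and 0.93 within clusters. The first was 0.66 [-0.16, 1.44] without the TAFE3_oil nucleus that held 8 of its 31 UMIs. Cryab, a small heat shock protein that oligodendrocytes also make, was 19.3, 11.96, 58.6, 23.6, 56.5 and 36.0 CPM. Bbc3, the p53 target PUMA, was 7.10, 9.07, 18.2, 12.9, 21.9 and 13.4 CPM, and the contactin gene Cntn6 of the subiculum list 9.13, 9.48, 24.7, 11.5, 36.9 and 19.1. The matrix gene Bcan was lower, at 38.1, 40.0, 18.2, 23.6, 11.5 and 24.0 CPM. C1ql2, a synaptic organiser of granule cells on the dentate list, was 61.9, 54.8, 18.2, 27.2, 19.6 and 37.4 CPM, highest in FE3 and FE4, where nuclei with Prox1 were also most frequent. Gfap, the astrocyte filament gene, was 35.0, 12.8, 100, 117, 111 and 77.0 CPM, and Trem2, a receptor of microglia, 10.7, 10.3, 35.2, 36.5, 36.9 and 45.2. The part of RNA from those glia in these values was not tested. Mgp of the vascular fibroblast list was 57.3, 18.6, 122, 21.5, 39.2 and 48.7 CPM. The endothelial nucleus of TAFE3_oil held 72 of its 94 UMIs there, and without it the ratio to FE3, left whole, turned from 1.09 to -0.97. In FE3 1 nucleus of cluster 5 held 35 of the 113 Mgp UMIs. Without these nuclei TAFE3_oil stood at 29.3 CPM and FE3 at 39.6 CPM. Hsd11b1 of the layer 5 list was 16.2, 12.8, 6.51, 12.9, 4.61 and 9.18, and Adarb2 of the inhibitory list 11.7, 14.0, 3.91, 5.73, 1.15 and 7.77.

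Tamoxifen was compared with oil in tau mice, TAFE3_tam against TAFE3_oil and TAFE4_tam against TAFE4_oil. With APOE3, 395 genes (4.11%) were past the fold, 191 higher (1.99%) and 204 lower (2.12%). With APOE4 there were 524 (5.28%), 286 higher (2.88%) and 238 lower (2.4%). Both pairs had the same direction for 14 genes higher (0.15%) and 13 lower (0.139%) of 9351. With at least 100 UMIs the counts were 10 and 58.

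Interferon genes were higher in TAFE4_tam than in TAFE4_oil. The interferon list had 5 of 13 measured genes past the fold upward and 0 downward in TAFE4_tam against TAFE4_oil, with a median of 0.86 beside 0.01 for all genes, and 3 of 10 and 0.66 within clusters, where 2.38% of all genes were past the fold upward. With APOE3 it had 0 of 10 higher and 2 lower with a median of 0.33. Without the endothelial nucleus of TAFE3_oil that count turned to 2 of 10 higher and 0 lower, beside 2.16% and 1.48% of all genes. Ifit1 (ENSMUSG00000034459), an interferon-induced protein that binds foreign RNA, was 3.04, 2.06, 20.8, 34.4, 3.46 and 107 CPM. The log2 ratio of tamoxifen to oil was 4.96 [3.38, 7.25] with APOE4 and 0.72 [-0.12, 1.64] with APOE3. In TAFE3_oil 9 of the 16 UMIs lay in 1 nucleus of cluster 1, without which the level was 9.19 CPM and the APOE3 ratio 1.90 [0.75, 3.29]. The oil-treated APOE4 library held 3 Ifit1 UMIs in members and TAFE4_tam held 152.

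Few nuclei carried the Ifit1 counts. In members of TAFE4_tam 47 of 370 nuclei had a UMI (12.7%), and 1 nucleus with 23 UMIs held 15.1% of them. In TAFE3_tam 21 of 351 nuclei had a UMI (5.98%), and in the other libraries 2 to 6 nuclei. The UMIs of TAFE4_tam were spread over all 7 clusters, with 80 in cluster 1 and 31 in cluster 4. The other Slc17a7 nuclei had 2.34, 2.503, 21.2, 23.8, 13.04 and 71.1 CPM of Ifit1, and oligodendrocyte nuclei 0, 0.886, 15.9, 33.1, 17.6 and 45.1, so TAFE4_tam lay above TAFE4_oil in each of these kinds of nuclei. The difference between kinds was not tested.

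Other genes of the list had lower counts. Stat2, a transcription factor of the interferon response, was 32.5, 28.9, 37.8, 47.2, 36.9 and 67.1 CPM. Rnf213, a large ubiquitin ligase, was 2.03, 4.12, 3.91, 10.7, 2.31 and 28.2 CPM, and 23 of its 40 UMIs in TAFE4_tam lay in nuclei that also had Ifit1. Isg15, a ubiquitin-like modifier, was 4.06, 2.06, 6.51, 5.73, 3.46 and 16.2 CPM, and Irf7, the factor that drives interferon genes, was 0, 0.412, 3.91, 5.73, 1.15 and 13.4 CPM. Bst2 and Ifitm3 were highest in TAFE3_oil, at 31.3 and 75.5 CPM, but its endothelial nucleus held 14 of 24 and 34 of 58 of those UMIs. Without it they stood at 13.3 and 32.0 CPM there, against 24.7 and 28.9 CPM in TAFE4_tam. Bst2 had a UMI in 9.19% of members of TAFE4_tam and 5.5% of those of TAFE3_oil. Ifit3, an interferon-induced relative of Ifit1, was highest in TAFE3_tam, at 4.57, 2.89, 6.51, 12.2, 6.92 and 9.88 CPM.

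The promoters of Ifit1 and Isg15 are shown because both genes were highest in TAFE4_tam and hold letters of the interferon-stimulated response element. The letters searched were GAAA, any 2 bases and again GAAA, on either strand, in the 250 bases before the transcription start of each gene in RefSeq's GRCm38.p6 tables. The sequence below is the 120 bases before the start, on the gene's strand from 5′ to 3′, with matches in capitals. A match on the opposite strand reads TTTC, 2 bases and TTTC, and neighbouring matches may overlap.
Ifit1: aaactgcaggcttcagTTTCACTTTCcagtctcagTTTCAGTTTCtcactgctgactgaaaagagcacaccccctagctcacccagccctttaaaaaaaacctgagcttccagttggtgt
Isg15: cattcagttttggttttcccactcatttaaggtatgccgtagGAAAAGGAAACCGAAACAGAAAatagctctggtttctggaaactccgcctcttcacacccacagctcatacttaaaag
The Ifit1 window lies at chr19:34640769-34640888 on the plus strand and holds 2 matches, and the Isg15 window at chr4:156200819-156200938 on the minus strand holds 3 that overlap. Of the 19 interferon-list genes with a promoter in the table, 9 (47.4%) held the letters, among them Stat2, Bst2 and Ifit3, against 936 of all 27025 genes (3.46%). The windows of Irf7 and Rnf213 held none, although both were highest in TAFE4_tam. A match describes the letters and is neither a binding site nor a cause.

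**Figure D5:**
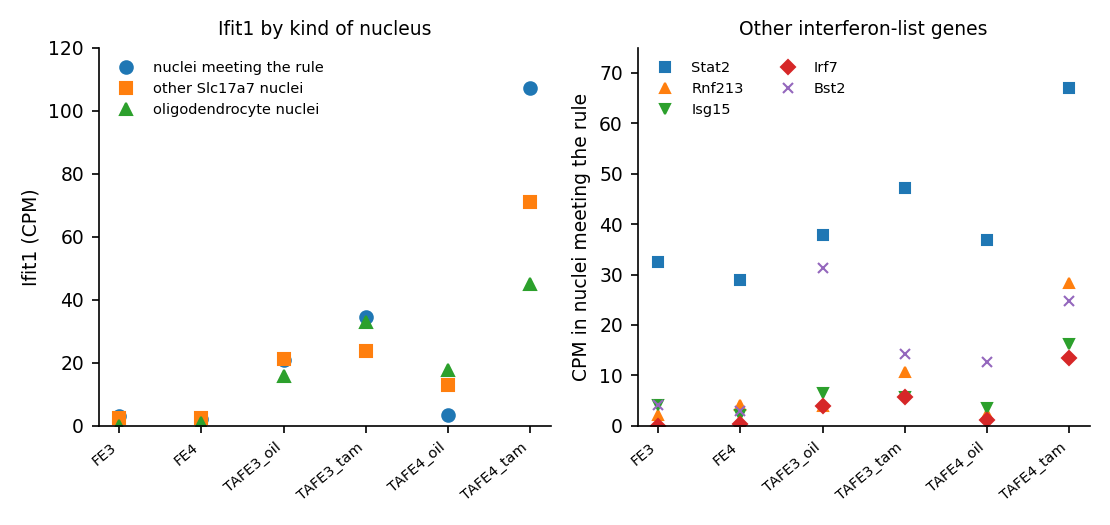
CPM by library of Ifit1 in members, other Slc17a7 nuclei and oligodendrocyte nuclei (left), and of Stat2, Rnf213, Isg15, Irf7 and Bst2 in members (right). Ifit1 reaches 107 CPM and Stat2 67.1 CPM in members of TAFE4_tam, while Bst2 lies at 31.3 CPM in TAFE3_oil with 14 of its 24 UMIs in 1 nucleus.

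Outside the interferon list, Col11a1 and Onecut2 were higher with tamoxifen in both pairs. Onecut2, a homeodomain factor gene, was 48.7, 30.1, 22.1, 42.2, 21.9 and 43.8 CPM. It was lowest in both oil-treated libraries, below FE3 in TAFE3_tam and above FE4 in TAFE4_tam. Its ratios were 0.93 [0.13, 1.80] and 1.00 [0.24, 1.82], and 0.69 and 0.18 within clusters. Col11a1, a fibrillar collagen gene and a leading gene of cluster 2, was 57.3, 56.5, 39.1, 87.3, 47.3 and 87.5 CPM, with 1.16 and 0.89 summed and 1.5 and -0.24 within clusters. Without the nucleus of each oil-treated library that held 8 of its 30 UMIs with APOE3 and 12 of 41 with APOE4, the summed ratios were 1.60 and 1.38. Crym had ratios of 0.73 and 0.76 and, within clusters, 0.61 and -0.26. Eif2ak1, a kinase that halts translation under stress, was 35.0, 35.0, 23.4, 38.6, 25.4 and 46.6 CPM.

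The lower genes of the tamoxifen pairs included 3 that were higher with tau. Nptx2 had ratios of -0.60 [-1.42, 0.23] and -1.22 [-2.00, -0.45], the first 0.23 [-0.73, 1.26] without the TAFE3_oil nucleus that held 11 UMIs, Polr2h -0.81 [-1.60, -0.03] and -0.57 [-1.32, 0.18], and Cacul1 -0.52 [-1.21, 0.19] and -0.61 [-1.24, 0.01]. The tau and the tamoxifen pairs share the oil-treated libraries, so the opposite signs are not independent. Fam81a was 34.0, 28.5, 52.1, 36.5, 56.5 and 25.4 CPM, and Ddx10, an RNA helicase gene, 22.3, 23.5, 41.7, 29.3, 33.4 and 23.3. Immediate early genes had 2 of 21 higher and 1 lower with APOE3, with a median of -0.01. With APOE4 they had 0 of 20 higher and 6 lower, with a median of -0.35. Of all genes, 1.99% were higher and 2.12% lower with APOE3, and 2.88% and 2.4% with APOE4. Without the endothelial nucleus of TAFE3_oil the first count was 1 of 20 higher and 0 lower, beside 2.16% and 1.48% of all genes. Within clusters the second count was 0 higher and 1 lower, where 4.1% of all genes were lower past the fold. Copines had medians of 0.26 and 0.88, and 0.14 and 0.27 within clusters.

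APOE4 was compared with APOE3 without tau, with tau and oil, and with tau and tamoxifen. FE4 against FE3 had 255 genes past the fold (2.66%), of which 207 (2.16%) were lower, beside a median of all genes of -0.13. TAFE4_oil against TAFE3_oil had 412 (4.57%) and TAFE4_tam against TAFE3_tam 388 (3.93%). In both of the first pairs 4 genes were higher (0.0457%) and 10 lower (0.114%) of 8752. With at least 100 UMIs the counts were 64, 15 and 25.

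Klf10, a zinc-finger gene induced by growth factors, was 25.4, 47.4, 31.3, 45.8, 58.8 and 40.2 CPM. Its ratios of APOE4 to APOE3 were 0.90 [0.41, 1.41] without tau, 0.91 [0.18, 1.68] with oil and -0.19 [-0.73, 0.35] with tamoxifen. Egr4, an activity-induced factor gene, was 23.3, 43.3, 40.4, 47.2, 58.8 and 26.8 CPM, with 0.89 [0.38, 1.42], 0.54 [-0.13, 1.24] and -0.82 [-1.43, -0.22]. In TAFE3_oil 12 of its 31 UMIs lay in 1 nucleus, without which the ratio with oil was 1.23 [0.45, 2.08]. Ybx3, an RNA-binding protein gene, had 0.59, 0.94 and -0.22, and Ercc8 and Fam189a1 had 0.49 to 0.64 in the first 2 pairs. The synaptic adhesion gene Nlgn1 was 70.0, 46.2, 70.3, 63.7, 48.4 and 78.4 CPM, lower with APOE4 without tau and with oil, at -0.60 [-0.97, -0.23] and -0.54 [-1.16, 0.07], but 0.30 [-0.12, 0.72] with tamoxifen. Dscaml1, Cntln, Pa2g4 and Nol4l were lower by -0.90 to -0.54 in the first 2 pairs. In the tamoxifen pair they stood at 0.11, 0.62, 0.49 and -0.16. Whether the pairs differ was not tested.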

How the data were processed

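Single-nucleus RNA of 6 libraries was deposited as raw UMI counts per gene and barcode. The matrix headers name Cell Ranger 3.1.0, and the submitters' processing notes name Cell Ranger, Seurat and mm10. The deposited counts cover 33457 features, human APOE among them, and no other normalization by the authors was used. The labels' protocol names both a 3′ and a 5′ chemistry.

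Counts were handled in Python 3.11.15 with scanpy 1.11.5 and clustered with leidenalg 0.10.2. Levels are UMIs per 1000000, summed over the nuclei of a kind (CPM). A log2 ratio compares the CPM of 2 libraries, with counts under 3 set to 3. Exact binomial intervals (Clopper-Pearson for shares, conditional binomial for ratios) cover counting error only. Within clusters, ratios were pooled by the Mantel-Haenszel method, with clusters 5 and 7 left out. Cluster 6 adds nothing to pairs with TAFE4_oil, which had 0 nuclei there. Doublets were scored with scrublet and kept: 125, 27, 24, 33, 14 and 74 members of FE3, FE4, TAFE3_oil, TAFE3_tam, TAFE4_oil and TAFE4_tam were called, in TAFE3_oil by the top expected share. The mitochondrial limit removed 70, 5, 25, 17, 25 and 4 nuclei that met the rule. Oligodendrocyte nuclei had no Slc17a7 UMI and carried at least 2 genes of the oligodendrocyte list.

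Named genes had at least 30 UMIs over each pair of libraries, at least 30 CPM in the higher one, and pooled CPM in members no lower than in nuclei without Slc17a7. Rule genes, mitochondrial, ribosomal protein and sex-linked genes, unnamed models and clone names were left out. The 10 highest and 10 lowest for tau, and the 5 highest and 5 lowest for tamoxifen and for APOE4, were taken by the smaller absolute log2 ratio of the same sign in both pairs. Genes of a list past the fold in the same direction in both tau pairs were added. The members against the other Slc17a7 nuclei were described by the 15 genes highest over all 6 libraries. Other genes were chosen after their values were seen. The members and lists were chosen with earlier results of these data known.

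The ratio procedure was tested on simulated data. Alternatives were TMM factors (edgeR 4.0.16) and DESeq2 1.42.0 size factors, both used for scaling only, other filters on nuclei and UMIs, and other marker thresholds. Where 1 nucleus held at least 25% of 6 or more UMIs of a gene in a library, values were also computed without it. Promoters came from RefSeq, GRCm38.p6. Some results are not reported here.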

Additional observations from a re-analysis of the deposited data

Results flagged for a closer look

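Tnrc6c in members moved in opposite directions with tamoxifen in both APOE backgrounds. Its log2 ratio of TAFE3_tam to TAFE3_oil was 0.25 [0.11, 0.39], and that of TAFE4_tam to TAFE4_oil was -0.46 [-0.62, -0.30]. The levels were 761 and 905 CPM with APOE3 and 678 and 493 CPM with APOE4, oil first. Nuclei outside the members moved in the same directions. The other Slc17a7 nuclei had 646 and 805 CPM with APOE3 and 554 and 410 CPM with APOE4. Oligodendrocyte nuclei had 512 and 566 CPM with APOE3 and 422 and 298 CPM with APOE4, so the pattern was not particular to members. Each group was 1 library, so the difference between the backgrounds was not tested.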

How the results depend on the processing

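The log2 share ratios of the 4 tau and tamoxifen pairs kept their sign under each alternative run. With at least 4 markers they were -1.52 (TAFE3_oil against FE3), -2.01 (TAFE4_oil against FE4), 1.33 (TAFE3_tam against TAFE3_oil) and 1.39 (TAFE4_tam against TAFE4_oil). TAFE4_oil against FE4 was -1.62 with nuclei thinned to 2000 UMIs. With Cpne7 not counted, chosen after seeing the data, 2 of the other 6 markers gave -0.94 and -1.09 for the tau pairs, and 3 gave -1.82 for TAFE4_oil against FE4 and 1.22 for TAFE4_tam against TAFE4_oil. Leaving out clusters 5 and 7, pooling within clusters and leaving out single nuclei were also chosen after seeing the data. Without the endothelial nucleus of TAFE3_oil the counts of genes past the fold were 572 against FE3, 347 for tamoxifen with APOE3 and 400 for TAFE4_oil against TAFE3_oil.

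Counts of genes past the fold depended on the UMI filter. With at least 100 UMIs they were 61 and 285 for tau (APOE3, then APOE4), 10 and 58 for tamoxifen in that order, and 64, 15 and 25 for APOE4 against APOE3 without tau, with oil and with tamoxifen. With no filter beyond 1 UMI the same 7 counts were 5048, 6000, 1107, 1258, 1112, 1108 and 977, since more genes were let in. FE4 against FE3 had 397 with at least 4 markers and 473 with 3 of the other 6, where members numbered 827 and 872. Of the 80 named ratios, 6 changed sign with at least 4 markers, 3 within clusters and 1 under each setting without Cpne7, and 0 under TMM or DESeq2 factors.

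No paired analysis was possible because each group had 1 library. Depth limits single genes: TAFE3_oil held 200 members and 767718 member UMIs, TAFE4_oil 213 and 867281, so a gene at 10 CPM rests on few UMIs.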
